A study of Mus musculus with 7 samples.

Results

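The genes described here encode proteins that platelets carry in their alpha granules, and they were measured by bulk RNA-seq in long-term haematopoietic stem cells (LT-HSCs) of mouse bone marrow. The 10 genes, Ppbp, Pf4, Vwf, Thbs1, F5, F13a1, Clu, Mmrn1, Serpine2 and Selp, were picked from 34932 genes as a list of known alpha-granule proteins. No measured threshold defines the list, but it was drawn up with earlier results of these data known, so its counts are a description of these genes. The study compared 4 libraries labelled B4galt1 KO, with the genotype 129S1/C57Bl/6, B4-/-, with 3 libraries labelled B4galt1 WT, with the genotype 129S1/C57Bl/6. The sort gate was lineage-negative, Sca-1+, cKit+, CD150+ and CD48-, and the design text calls the mutant animals full knockouts. B4galt1 is the gene of an enzyme that puts galactose on the sugar chains of glycoproteins. The labels give no age, sex or treatment.

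Alpha granules are the most abundant secretory granules of platelets. They are filled in the megakaryocyte, the bone marrow cell that sheds platelets, and released at sites of vessel injury, where their contents act in adhesion, coagulation, inflammation and repair. Some cargo is made by the megakaryocyte itself and some is taken up from plasma. A fraction of LT-HSCs is known to carry transcripts of the megakaryocyte lineage, Vwf and Pf4 among them, ahead of any lineage commitment.

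Libraries held 24724079 to 34941390 estimated reads in KO and 23508985 to 30325691 in WT. Levels are in CPM, the reads of a gene relative to the depth of its library, scaled between libraries by TMM. Means are given ± SD over 4 KO and 3 WT libraries. The RNA of the targeted gene did not separate the groups: B4galt1 had 19.3, 14.9, 14.8 and 14.6 CPM in the KO libraries and 19.2, 24.4 and 11.3 CPM in the WT libraries, in replicate order (log2 fold change -0.20, SE 0.270, edgeR adjusted p = 0.758). Counts per gene do not show whether a piece of the transcript was missing, so every direction below rests on the labels. Expression of Y-linked genes was low in KO replicate 4 and WT replicate 3, at 11.6 and 5.92 CPM in sum, and lay between 232.4 and 381.7 CPM in the other libraries. The labels do not say that replicates are separate animals, so the p-values speak only of the spread among these 7 libraries. How much of that spread is technical is not known.

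Promoter sequences are shown for 4 of the genes because they frame the contrasts that follow: Ppbp and Pf4 are adjacent chemokine genes that kept very different shares of their WT level, F13a1 was at the low end of the list in KO, and Selp was the gene that did not fall. The windows are from RefSeq on GRCm38.p6 and run from 250 bases before to 50 bases after the start site, 5′ to 3′ on the strand of the gene. Capitals mark matches, on either strand, to AGATAA or AGATAG, also TGATAA or TGATAG, all called GATA matches here. They also mark AGGAAG or CGGAAG, called ETS matches, and the letters TATAAA. No matched bases overlapped between motifs.
Ppbp, chr5:90768268-90768567, plus strand: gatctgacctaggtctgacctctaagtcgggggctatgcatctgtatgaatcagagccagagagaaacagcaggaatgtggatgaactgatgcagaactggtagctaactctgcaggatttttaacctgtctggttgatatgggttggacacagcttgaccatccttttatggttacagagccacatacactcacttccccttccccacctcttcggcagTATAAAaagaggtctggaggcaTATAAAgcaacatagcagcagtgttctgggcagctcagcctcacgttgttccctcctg
Pf4, chr5:90772185-90772484, plus strand: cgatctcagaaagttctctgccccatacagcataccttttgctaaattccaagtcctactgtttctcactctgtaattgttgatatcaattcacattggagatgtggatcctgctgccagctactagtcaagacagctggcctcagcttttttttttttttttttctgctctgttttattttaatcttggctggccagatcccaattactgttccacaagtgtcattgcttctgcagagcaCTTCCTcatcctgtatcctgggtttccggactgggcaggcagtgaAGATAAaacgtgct
F13a1, chr13:37050195-37050494, minus strand: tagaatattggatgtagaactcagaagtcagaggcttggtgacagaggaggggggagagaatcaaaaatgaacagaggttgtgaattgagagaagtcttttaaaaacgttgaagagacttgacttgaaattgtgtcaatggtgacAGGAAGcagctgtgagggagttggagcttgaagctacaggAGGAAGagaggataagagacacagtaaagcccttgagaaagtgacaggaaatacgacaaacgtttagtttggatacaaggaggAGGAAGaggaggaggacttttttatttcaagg
Selp, chr1:164115014-164115313, plus strand: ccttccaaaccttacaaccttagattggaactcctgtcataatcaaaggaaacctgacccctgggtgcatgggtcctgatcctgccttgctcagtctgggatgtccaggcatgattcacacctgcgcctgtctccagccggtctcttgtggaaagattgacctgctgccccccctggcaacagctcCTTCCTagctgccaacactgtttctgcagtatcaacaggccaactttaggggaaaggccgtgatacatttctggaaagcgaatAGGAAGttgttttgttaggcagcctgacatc

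The Ppbp window held no GATA or ETS match and 2 TATAAA matches, whose first bases lay at -30 and -8 from the start site. The Pf4 window held AGATAA at 37 and AGGAAG on the opposite strand at -9. The F13a1 window shown held 3 ETS matches and the Selp window 2. Of all 32851 promoter windows of the same length, 29.8% held a GATA match, 46.5% an ETS match and 13.6% a TATAAA match. The RefSeq table matched 7 of the 10 genes with 8 windows. Among those not printed, Mmrn1 held TGATAA at -34, and F5, Serpine2 and a second F13a1 window each held at least 1 ETS match. Which F13a1 window was in use in these cells was not tested. A match describes letters in a window and is not a measured binding site.

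In KO libraries 9 of the 10 cargo genes fell and none rose, by edgeR's quasi-likelihood test with Benjamini-Hochberg adjustment over all 14695 genes tested. All 10 were among the genes tested. Over the genes tested, 1.66% fell and 0.599% rose by the same rule, 2.26% in either direction. For each of the 9 genes every KO library lay below every WT library, which held for 7.47% of the genes tested. The median log2 fold change was -2.83 over the 10 genes and 0.03 over all genes tested. The level left in KO ranged from 0.692% of WT for Ppbp to 45.5% for Mmrn1, and Selp did not pass the test. In bulk samples, fewer cells of a type and less RNA per cell cannot be told apart.

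**Figure D1:**
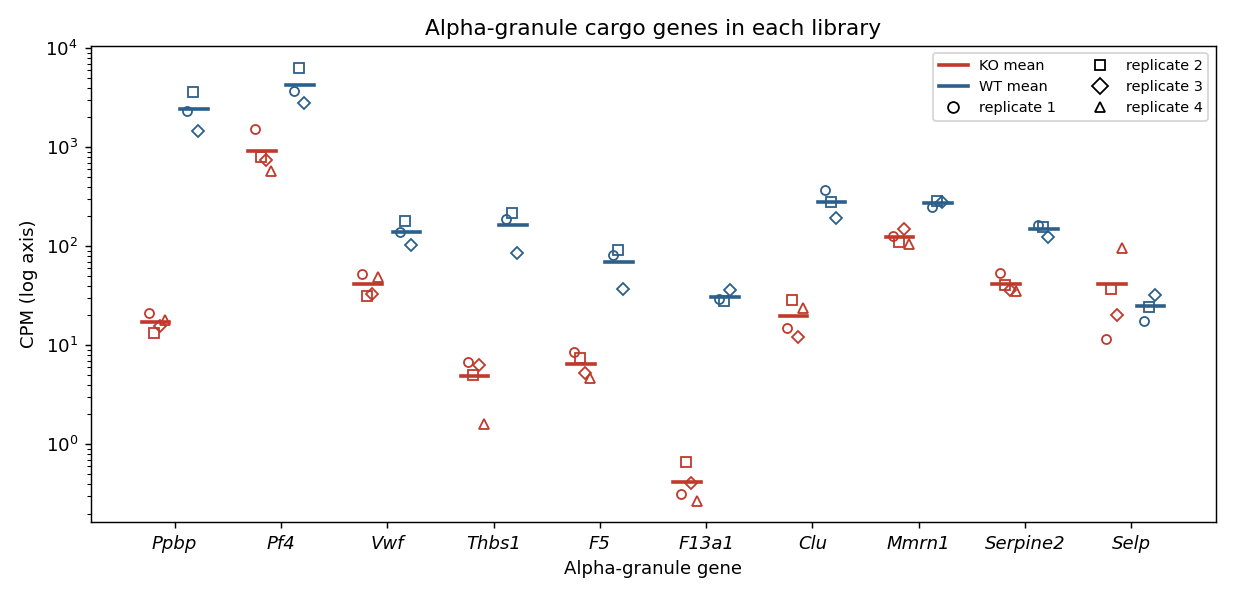
CPM on a log axis for each of the 10 alpha-granule genes in each of 4 KO (red, left) and 3 WT (blue, right) libraries; symbols mark replicate numbers and lines the group means. KO and WT points are apart for 9 genes, by most for Ppbp at 13.5 to 21.1 against 1468 to 3579 CPM, and they overlap for Selp.

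Among the chemokines, Ppbp, whose protein is cut to the neutrophil attractant known as CXCL7 or NAP-2, had 21.1, 13.5, 15.7 and 17.8 CPM in KO replicates 1 to 4, against 2335, 3579 and 1468 CPM in WT replicates 1 to 3. The KO libraries lay close together, while WT replicates spread by 2.44-fold. The means were 17.0 ± 3.26 CPM in KO and 2460 ± 1061 CPM in WT, a log2 fold change of -7.18 (SE 0.335, adjusted p = 7.47e-06), which leaves 0.692% of WT (95% interval 0.414% to 1.16%). Per length, Ppbp ranked between 4618 and 5868 among protein-coding genes by TPM in KO libraries, against 37 to 79 in WT libraries.

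Pf4 encodes platelet factor 4, a heparin-binding chemokine that is a classic megakaryocyte product. It had 1541, 805.9, 737.0 and 577.4 CPM in KO replicates 1 to 4, against 3697, 6376 and 2791 CPM in WT replicates 1 to 3. KO replicate 1 was the highest of its group, and still below the lowest WT library. The means were 915.4 ± 428 CPM in KO and 4288 ± 1864 CPM in WT, with a log2 fold change of -2.23 (SE 0.356, adjusted p = 0.00745) and 21.3% of WT left (95% interval 12.4% to 36.8%). By TPM, Pf4 was the highest of the 10 genes in both groups, and it ranked 13, 39, 40 and 35 among protein-coding genes in KO replicates 1 to 4, against 3, 2 and 4 in WT replicates 1 to 3.

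Ppbp and Pf4 lie head to tail on the plus strand of chromosome 5 (mm10), Ppbp at 90768518 to 90770063 and Pf4 at 90772435 to 90773383, with 2372 bases between them. Pf4 exceeded Ppbp in TPM by 219.5-, 175.6-, 139.5- and 97.2-fold in KO replicates 1 to 4, against 4.61-, 5.35- and 5.81-fold in WT replicates 1 to 3. As a log2 ratio of Ppbp to Pf4 within a library, this was -7.24 ± 0.502 in KO and -2.39 ± 0.169 in WT, a difference of -4.85. This pair was chosen with the fold changes known, so the direction of the difference was given by the choice. The exact two-sided permutation test over libraries gave p = 0.0571, the smallest that 4 against 3 libraries allow. This design cannot pass 0.05. Of the chemokine genes on either side, 1 fell. Cxcl5, a neutrophil-attracting chemokine gene that lies 6894 bases before Ppbp, had 2.15, 0.517, 0.987 and 1.51 CPM in KO, against 7.68, 11.6 and 5.60 CPM in WT (log2 fold change -2.68, SE 0.484, adjusted p = 0.0165). That call ended without KO replicate 3 or WT replicates 1 or 2, with adjusted p between 0.0501 and 0.0700. Cxcl3, 12720 bases after Pf4, did not pass, at 0.820 to 2.11 CPM in KO and 0.345 to 4.83 CPM in WT (log2 fold change -0.49, adjusted p = 0.789).

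Among the adhesive proteins, Thbs1 encodes thrombospondin 1, a matrix glycoprotein that is abundant in platelets. It lies on chromosome 2 at 118111876 to 118127133. Thbs1 had 6.71, 4.99, 6.36 and 1.62 CPM in KO replicates 1 to 4, against 190.1, 215.8 and 85.6 CPM in WT replicates 1 to 3. KO replicate 4 was the lowest of all, and WT replicate 3 was the lowest WT library by a wide margin. The means of 4.92 ± 2.32 CPM in KO and 163.8 ± 69.0 CPM in WT gave a log2 fold change of -5.07 (SE 0.473, adjusted p = 0.000233), with 2.98% of WT left (95% interval 1.44% to 6.16%).

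Vwf encodes von Willebrand factor, the large multimer that tethers platelets to injured vessel walls, and it lies on chromosome 6 at 125546774 to 125686679. It had 52.8, 31.3, 32.7 and 49.3 CPM in KO replicates 1 to 4, against 138.7, 180.8 and 102.7 CPM in WT replicates 1 to 3. The groups did not overlap. The means were 41.5 ± 11.1 CPM in KO and 140.7 ± 39.1 CPM in WT, with a log2 fold change of -1.76 (SE 0.247, adjusted p = 0.0036) and 29.5% of WT left (95% interval 20.2% to 43.1%). Vwf is also made by endothelium. Of 10 endothelial markers, 7 were tested, 0 fell and 0 rose, and Cdh5 was at 0 in all libraries. The median log2 fold change was -0.39, with 6 below 0 and 1 above. Kdr, with the smallest p, had 0.475 to 2.34 CPM in KO and 3.70 to 4.62 CPM in WT. Its log2 fold change was -1.58 (edgeR adjusted p = 0.166), and it passed under 2 of 19 alternatives. The summed level of the list was 184.8 to 226.8 CPM in KO and 230.4 to 249.3 CPM in WT. The part of endothelial cells in the Vwf result was not tested.

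Most of the reads behind the Vwf result were assigned to transcripts that do not encode the full protein. Only 19.5% to 49.0% of Vwf reads in KO and 11.2% to 29.7% in WT were assigned to protein-coding transcripts. Those include short entries of 1807 and 2184 bases, so coding does not mean full length here. Most of the other Vwf reads were assigned to a transcript of 2686 bases, annotated for nonsense-mediated decay, and another of 456 bases at the gene's 3′ end. The former shares all its bases with the longest coding transcript, of 8834 bases, and the latter shares 84.0%. Where bases are shared, the counts cannot show which of these RNAs the reads came from. Estimated reads on the 2686-base transcript were 576, 322, 386 and 511 in KO replicates 1 to 4, against 1977, 1976 and 1153 in WT replicates 1 to 3. Reads on coding Vwf transcripts were 264, 288, 214 and 893 in KO replicates 1 to 4, against 1100, 432 and 708 in WT replicates 1 to 3, so the groups overlapped. The 8834-base transcript alone held 95.5, 140, 136 and 407 reads in KO, against 496, 257 and 291 in WT, also with overlap. Where transcript length entered the model, the log2 fold change of Vwf was -2.28. With protein-coding transcripts only, it was -1.12 and the edgeR adjusted p was 0.214. In that count, 8 of the 10 cargo genes fell, and 1.48% of the 13211 genes tested did.

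**Figure D2:**
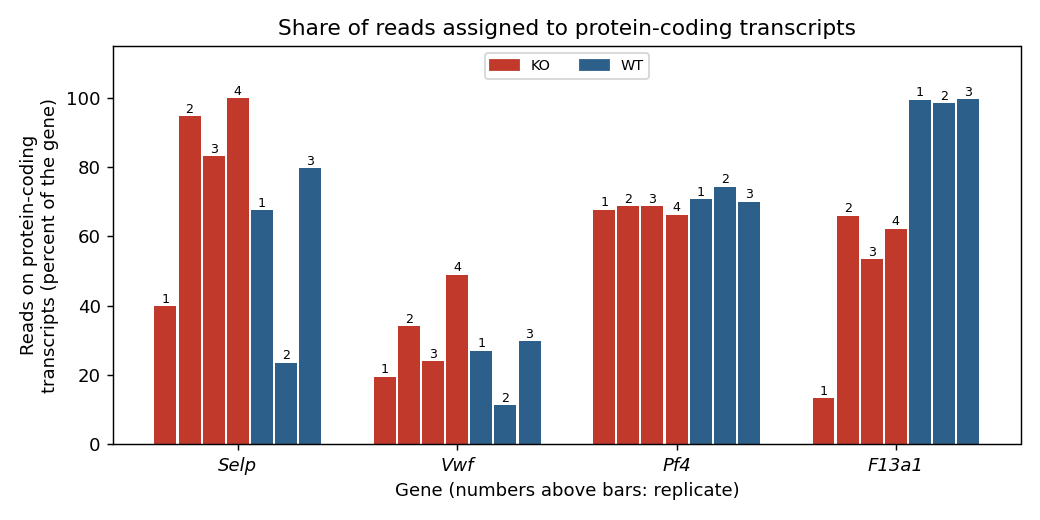
Share of the estimated reads of a gene that was assigned to its protein-coding transcripts, in percent, for Selp, Vwf, Pf4 and F13a1; each bar is 1 library, KO red and to the left of WT in blue, with the replicate number above. Vwf stays under 50% in every library, F13a1 is above 98% only in WT, and Selp runs from 23.5% to 99.9% within the 7 libraries.

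Mmrn1 encodes multimerin 1, a large protein that binds factor V in platelets, and lies on chromosome 6 at 60924976 to 60989378. Its levels were 125.7, 111.0, 150.7 and 106.1 CPM in KO replicates 1 to 4, against 250.3, 283.4 and 280.2 CPM in WT replicates 1 to 3. Both groups were tight, and they were well apart. The means of 123.4 ± 20.0 CPM in KO and 271.3 ± 18.2 CPM in WT gave a log2 fold change of -1.14 (SE 0.162, adjusted p = 0.00403), with 45.5% of WT left (95% interval 35.4% to 58.3%), the highest share among the genes that fell.

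Among the coagulation genes, F13a1 encodes the A subunit of factor XIII, the transglutaminase that crosslinks fibrin, on the minus strand of chromosome 13 at 36867178 to 37050244. It had 0.312, 0.665, 0.402 and 0.270 CPM in KO replicates 1 to 4, against 29.0, 28.1 and 36.2 CPM in WT replicates 1 to 3. This was 7.54 to 17.6 estimated reads per KO library and 599 to 855 per WT library. The means of 0.412 ± 0.177 CPM in KO and 31.1 ± 4.43 CPM in WT gave a log2 fold change of -6.24 (SE 0.336, adjusted p = 9.34e-06), with 1.33% of WT left (95% interval 0.792% to 2.22%). Coding transcripts held 1.00 to 11.6 of these reads in KO and 590 to 851 in WT, and counted alone they gave a log2 fold change of -7.11. A non-coding F13a1 transcript of 2965 bases, which shares 26.3% of its bases with the longest coding one, held 3.65 to 6.54 reads in KO and 3.34 to 9.23 reads in WT. The coding share of F13a1 reads was 13.3% to 66.0% in KO, on these few reads, and 98.5% to 99.6% in WT.

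F5 encodes coagulation factor V, the cofactor of factor Xa, and lies on chromosome 1 at 164151838 to 164220277. It had 8.63, 7.39, 5.27 and 4.70 CPM in KO replicates 1 to 4, against 82.2, 91.1 and 37.0 CPM in WT replicates 1 to 3. WT replicate 3 was the lowest of its group and still far above the highest KO library. The means of 6.50 ± 1.83 CPM in KO and 70.1 ± 29.0 CPM in WT gave a log2 fold change of -3.43 (SE 0.334, adjusted p = 0.000308), with 9.25% of WT left (95% interval 5.55% to 15.4%). A processed pseudogene inside F5 on the same strand, Gm16588, had 43.5 to 61.1 reads in KO and 13 to 35 reads in WT and did not pass the test. The library kit does not mark strand, and Thbs1, F5, F13a1 and Selp overlap annotated non-coding genes on the opposite strand that were not analysed here, so reads from them cannot be told apart.

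Serpine2 encodes protease nexin 1, an inhibitor of thrombin and other serine proteases, on the minus strand of chromosome 1 at 79794197 to 79861180. Its levels were 53.4, 40.8, 36.6 and 35.7 CPM in KO replicates 1 to 4, against 163.2, 155.2 and 125.3 CPM in WT replicates 1 to 3. KO replicate 1 was again the highest KO library, and the groups stayed apart. The means of 41.6 ± 8.18 CPM in KO and 147.9 ± 20.0 CPM in WT gave a log2 fold change of -1.83 (SE 0.184, adjusted p = 0.000381), with 28.1% of WT left (95% interval 21.2% to 37.3%).

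Clu encodes clusterin, a secreted chaperone, and lies on chromosome 14 at 65968483 to 65981547. It had 15.0, 28.9, 11.99 and 23.8 CPM in KO replicates 1 to 4, against 366.8, 280.3 and 194.5 CPM in WT replicates 1 to 3. KO replicates 2 and 4 were the higher pair here, unlike in the genes led by KO replicate 1. The means of 19.9 ± 7.80 CPM in KO and 280.6 ± 86.1 CPM in WT gave a log2 fold change of -3.81 (SE 0.326, adjusted p = 0.000127), with 7.11% of WT left (95% interval 4.31% to 11.7%).

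Selp encodes P-selectin, a membrane protein of the granule that reaches the platelet surface upon release and binds leukocytes. It lies on chromosome 1 at 164115264 to 164150026. Selp had 11.6, 36.8, 20.4 and 96.7 CPM in KO replicates 1 to 4, against 17.8, 24.2 and 32.5 CPM in WT replicates 1 to 3. KO libraries spread by 8.34-fold and reached both below and above the WT libraries. The means were 41.4 ± 38.3 CPM in KO and 24.8 ± 7.39 CPM in WT, and the log2 fold change of 0.74 (SE 0.586, adjusted p = 0.587) had a 95% interval of -0.56 to 2.04. That interval does not reach the log2 fold change of any of the 9 genes that fell, but it does not show equal levels, since it spans 68.0% to 411% of WT. Without KO replicate 4 the log2 fold change was -0.11, and over all alternatives it ran from -0.23 to 1.42 without a call.

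The reads of Selp were divided among transcripts in a way that differed between libraries. The single coding transcript took 39.8%, 94.6%, 83.1% and 99.9% of the reads of the gene in KO replicates 1 to 4, against 67.6%, 23.5% and 79.7% in WT replicates 1 to 3. Its TPM was 1.38, 10.5, 5.35 and 35.2 in KO replicates 1 to 4, against 3.48, 1.39 and 7.86 in WT replicates 1 to 3. The groups overlapped on this count too (log2 fold change 1.42, adjusted p = 0.517). A retained-intron transcript of 1392 bases shares 86.1% of its bases with the coding one.

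Selp and F5 are neighbours on the same strand, with 1812 bases between them. F5 was at 9.25% of WT in KO while Selp was at 167% of WT without passing the test. Slc19a2, a thiamine transporter gene 28769 bases beyond F5, did not pass the test (log2 fold change -0.48, adjusted p = 0.526).

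Ordered by the share of the WT level left in KO, the 10 genes formed a gradient. The order was Ppbp, F13a1, Thbs1, Clu, F5, Pf4, Serpine2, Vwf, Mmrn1 and Selp. Between Ppbp and Mmrn1, steps between neighbours in this order measured 0.07 to 1.25 on the log2 scale, the widest lying between Thbs1 and Clu. The 3 genes left with the smallest shares, 0.692% to 2.98% of WT, were set off from Clu by 1.25. This step was much like the 1.21 between F5 and Pf4. In this count no single gap split the genes into nearly lost and partly kept. A fall with a log2 fold change below -3, as in Ppbp, F13a1, Thbs1, Clu and F5, was seen in 0.558% of all genes tested. With protein-coding transcripts only, log2 fold changes were -7.15 for Ppbp, -7.11 for F13a1, -5.04 for Thbs1 and -3.79 for Clu. The widest step among the genes below WT then lay between F13a1 and Thbs1, with F13a1 at 1.00 to 11.6 coding reads in KO. Vwf, at -1.12, then came after Mmrn1, at -1.21.

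**Figure D3:**
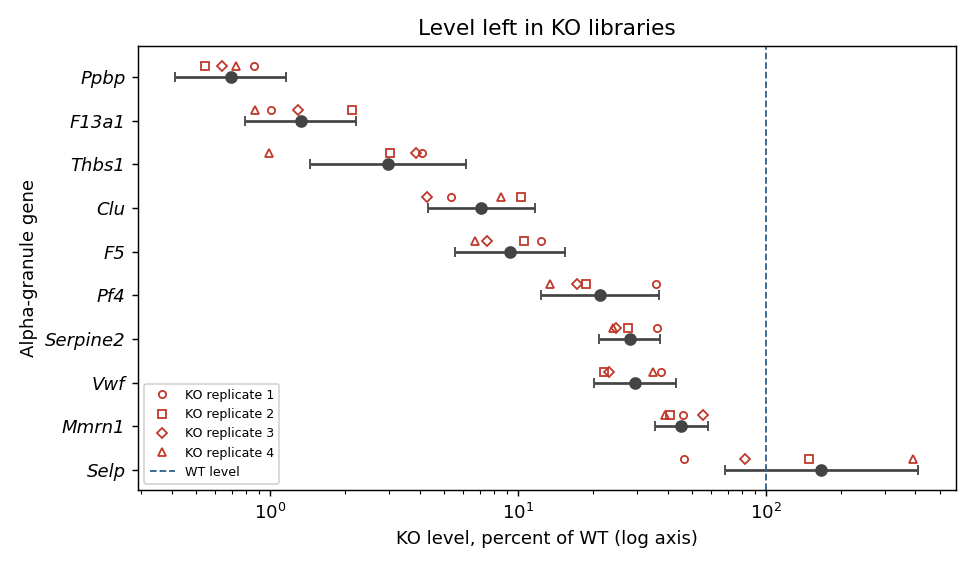
Level in KO as a percent of WT on a log axis for the 10 genes, from the largest fall at the top to Selp at the bottom; black points and bars are the edgeR estimate with its 95% interval, red symbols the single KO libraries over the WT mean, and the dashed line is the WT level. The estimates run in steps from 0.692% to 45.5% for 9 genes, and the interval of Selp crosses 100%.

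The differences in what was left can be restated as ratios within libraries, where each library serves as its own scale. These ratios use the same genes and libraries and are no separate support. Besides Ppbp and Pf4, 1 pair of adhesive proteins and 1 of coagulation proteins were compared, the pairs being chosen with the fold changes known, so that their direction was given by the choice. The log2 TPM ratio of Thbs1 to Vwf was -5.47 ± 0.877 in KO and -2.52 ± 0.367 in WT, a difference of -2.95. Most of the Vwf TPM in this ratio came from the 456-base transcript, with 59.9% of the mean in KO and 73.5% in WT. The ratio of F13a1 to F5 was -2.78 ± 0.507 in KO and -0.11 ± 0.906 in WT, a difference of -2.66. In none of the 3 pairs did KO and WT libraries overlap, which describes pairs chosen with these falls known. Each exact two-sided permutation p was 0.0571, the smallest this design allows, also after adjustment over the 3 pairs. These ratios used a pseudocount of 0.01 TPM, and with a pseudocount of 1 TPM the differences were -4.77 for Ppbp to Pf4, -1.84 for Thbs1 to Vwf and -0.64 for F13a1 to F5, the last with an exact permutation p of 0.114; Thbs1, F13a1 and F5 are near or below 1 TPM in KO.

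**Figure D4:**
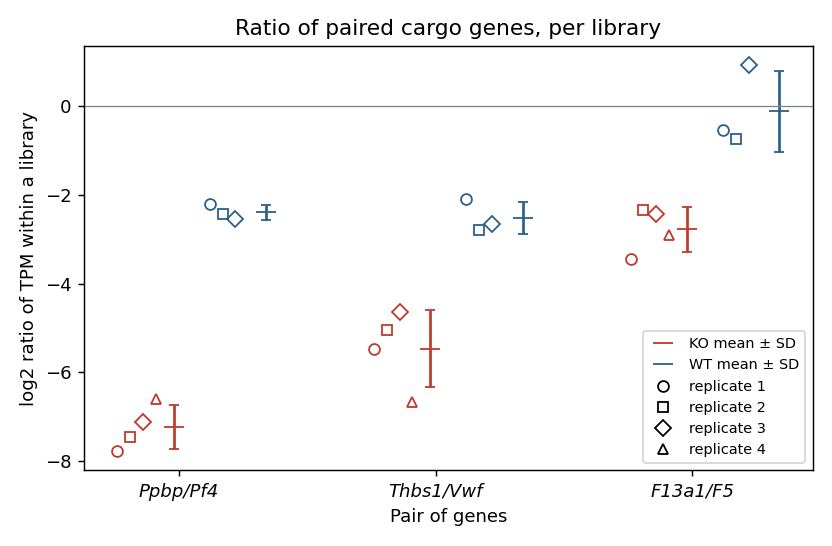
Log2 ratio of TPM within each library for Ppbp to Pf4, Thbs1 to Vwf and F13a1 to F5; KO libraries are red and left of WT in blue, symbols mark replicates and the bars are mean ± SD. KO lies below WT in each pair, by -4.85 for Ppbp to Pf4 in the mean.

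The unequal falls changed the order of the genes by level. In TPM, which corrects for length, the KO order was Pf4 at 2906 ± 1181, then Vwf at 36.8 ± 10.8 and Mmrn1 at 32.3 ± 5.24, then Serpine2 at 23.8 ± 2.83, Ppbp at 18.6 ± 3.94, Selp at 16.3 ± 12.9 and Clu at 13.8 ± 5.70. F5, Thbs1 and F13a1 stood at 0.893 ± 0.189, 0.884 ± 0.385 and 0.124 ± 0.0438 TPM in KO. Vwf and Mmrn1 overlapped in range, as did neighbours from Serpine2 to Clu, and F5 with Thbs1. In WT the order was Pf4 at 11318 ± 3096, Ppbp at 2176 ± 632, Clu at 171 ± 55.9, Vwf at 146 ± 56.7, Serpine2 at 66.0 ± 9.30, Mmrn1 at 56.1 ± 7.41 and Thbs1 at 25.5 ± 9.19 TPM. Selp, F5 and F13a1 closed it at 11.6 ± 3.23, 8.20 ± 2.95 and 7.33 ± 1.78 TPM. In WT the neighbours Clu and Vwf overlapped in range, as did Serpine2 and Mmrn1, Selp and F5, and F5 and F13a1. The TPM of Vwf counts the 456-base transcript at its 3′ end, which held 59.9% of mean Vwf TPM in KO and 73.5% in WT. Its coding transcripts had mean TPM of 2.34, 1.94 and 0.838 in KO and 4.64, 3.67 and 1.58 in WT. The place of Vwf in both orders thus depends on how its reads were assigned. The TPM of Pf4 counts a short retained-intron transcript of 360 bases, which shares 94.2% of its bases with the coding one. Coding transcripts took 66.3% to 68.7% of Pf4 reads in KO and 70.1% to 74.3% in WT.

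Libraries kept a loose order over the 9 genes that fell. KO replicate 1 was the highest KO library for 6 of them and the lowest for none, and KO replicate 4 was the lowest for 6. WT replicate 2 was the highest WT library for 6, and WT replicate 3 the lowest for 7. Summed over all 10 genes, KO replicates 1 to 4 held 1837, 1081, 1017 and 913.5 CPM, against 7270, 11214 and 5153 CPM for WT replicates 1 to 3. Ppbp and Pf4 made up 65.2% to 85.1% of that sum in KO and 82.7% to 88.8% in WT. The sum of the 8 other genes was 261.8 to 318.2 CPM in KO, against 893.9 to 1259 CPM in WT. In the 5 libraries with Y-linked expression alone, without KO replicate 4 and WT replicate 3, the same 9 genes fell.

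For each cargo gene, the protein-coding gene with the nearest profile over the 7 libraries was found among 11255 genes by root mean square distance on the centred log2 scale, a description of likeness only. The closest match of all was Tox for Mmrn1, at a distance of 0.0762, followed by Cap2 for Vwf at 0.180, Inafm2 for Serpine2 at 0.213, Slc35d3 for Pf4 at 0.223 and Gp6 for Ppbp at 0.318. Thbs1 lay nearest to Parvb at 0.345, Selp to Id1 at 0.357, F5 to Slpi at 0.384, Clu to Tpm4 at 0.476 and F13a1 to Tgfb1i1 at 0.725. Gp6, the collagen receptor of platelets, had 0.308 ± 0.162 CPM in KO and 50.4 ± 13.5 CPM in WT (log2 fold change -7.36, adjusted p = 7.95e-06), against a log2 fold change of -7.18 for Ppbp. Among the cargo genes themselves, the nearest pair was Vwf and Serpine2 at 0.281.

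A wider list of 34 other alpha-granule contents was less uniform, with 23 tested, of which 6 fell, 1 rose and 16 did not pass, and a median log2 fold change of -0.42. Treml1, a receptor stored in the granule membrane, had 41.0, 30.5, 33.9 and 36.0 CPM in KO, against 195, 189 and 95.0 CPM in WT (log2 fold change -2.18, adjusted p = 0.000747). Ltbp1, which binds latent TGF-beta, had 0.621 to 3.36 CPM in KO, against 18.5 to 34.9 CPM in WT (log2 fold change -4.05, adjusted p = 0.00163), and -2.35 where transcript length entered the model. Cxcl5 fell as given above. Pros1, Pdgfa and Igf1, encoding protein S and 2 growth factors, also fell, with log2 fold changes of -1.51, -3.22 and -3.72 and adjusted p of 0.033, 0.0393 and 0.0446. Sparc, which encodes osteonectin, rose to 2.38, 4.55, 8.85 and 6.05 CPM in KO, against 0.577, 0.609 and 0.862 CPM in WT (log2 fold change 2.99, adjusted p = 0.0131). Without WT replicate 1 or 2, the adjusted p of Sparc was 0.0711 or 0.0607. Srgn, the proteoglycan that retains Pf4 in the granule, had 1170.0 to 1559 CPM in KO and 1452 to 1680.1 CPM in WT without passing (log2 fold change -0.16). Tgfb1 had 74.7 to 125 CPM in KO and 75.8 to 133 CPM in WT, also without passing. Vtn, Fga, Fgb and Fgg, whose proteins platelets hold although liver is their main source, were at 0 in all 7 libraries.

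Genes needed to build the granule did not fall with the cargo as a list. Of 6 biogenesis genes tested, 1 fell and 0 rose, with a median log2 fold change of -0.04. The gene that fell was Rab27b, a small GTPase of granule transport, at 92.8 ± 8.19 CPM in KO and 237.3 ± 56.3 CPM in WT (log2 fold change -1.35, adjusted p = 0.0023). Nbeal2, lost in grey platelet syndrome, and Vps33b and Vipas39, partners in sorting cargo to the granule, had log2 fold changes of -0.34, 0.35 and 0.36 and did not pass. Of 9 lineage transcription factors, 0 fell and 0 rose by edgeR, with a median of -0.04. Among them the GATA factor Gata1, the ETS factor Fli1 and Tal1 had log2 fold changes of 0.40, -0.48 and -0.51, and Fli1 had the smallest adjusted p of these at 0.132, against 0.00996 with DESeq2.

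Of 11 receptors that bind the cargo, 10 were tested, 2 fell and 0 rose, with a median log2 fold change of -0.13. Itgb3, a subunit of the fibrinogen and Vwf receptor, had 34.6, 21.2, 26.3 and 16.5 CPM in KO, against 167, 268 and 84.2 CPM in WT (log2 fold change -2.81, adjusted p = 0.00214). Gp1ba, the Vwf-binding chain of the GPIb complex, had 8.63 to 22.6 CPM in KO and 34.3 to 49.2 CPM in WT (log2 fold change -1.61, adjusted p = 0.0246), a call that ended without KO replicates 2 or 3 or WT replicates 1 or 2, with adjusted p between 0.0708 and 0.0914. Cxcr2, a receptor for the protein product of Ppbp, had 6.03 to 7.69 CPM in KO and 2.90 to 4.05 CPM in WT (log2 fold change 1.06, adjusted p = 0.111). It passed as higher under 1 of 19 alternatives.

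**Figure D5:**
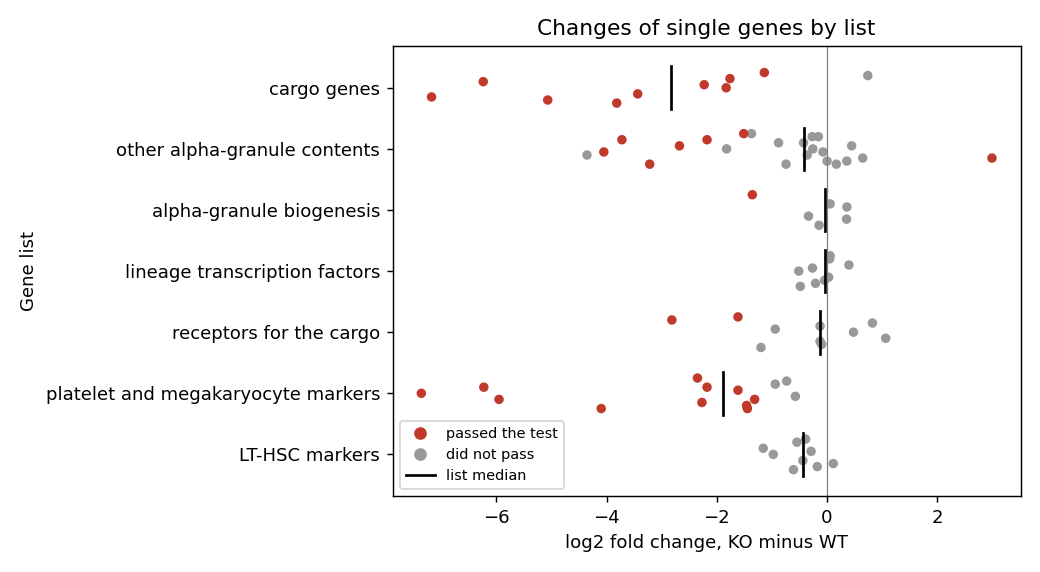
Log2 fold change, KO minus WT, of each tested gene (points) in the cargo list and 6 other lists; red points passed the edgeR test, grey points did not, and black lines are list medians. The cargo median is -2.83 and that of the platelet and megakaryocyte markers -1.90, while the biogenesis and transcription factor lists have medians of -0.04.

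Markers of platelets and megakaryocytes moved with the cargo: 11 of 14 fell and 0 rose, with a median log2 fold change of -1.90 and a summed level of 1226 to 1335 CPM in KO and 2837 to 4495 CPM in WT. Besides Gp6, the smallest p-values were those of P2ry12, at -4.10, and Clec1b, at -6.23, in log2 fold change. Their part in the cargo result was not tested. For the LT-HSC label, Kit was present at 209 to 327 CPM in KO and 255 to 391 CPM in WT, and Slamf1, the gene of CD150, was at 67.8 to 112 CPM in KO and 72.5 to 128 CPM in WT. Of 9 LT-HSC markers, 0 fell and 0 rose. The median was -0.44, with 8 below 0 and 1 above, while 6955 of all 14695 genes tested were below 0. These markers summed to 648.6 to 932.5 CPM in KO and 859.1 to 1126 CPM in WT. Procr, Fgd5 and Mecom had the smallest p-values among them, with log2 fold changes of -0.97, -1.16 and -0.54. For each of these genes every KO library lay below every WT library, as for 7.47% of the genes tested. Procr, at 16.7 to 33.7 CPM in KO and 40.6 to 51.9 CPM in WT, missed the threshold by edgeR (adjusted p = 0.068) and passed under 6 of 19 alternatives, with an adjusted p of 0.00412 with DESeq2. Fgd5 passed with DESeq2 alone (adjusted p = 0.0396), and its log2 fold change was 0.61 with protein-coding transcripts only.

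Markers of other cells were examined because F13a1, Thbs1, Clu and Selp are not exclusive to platelets. Of 10 monocyte and macrophage markers, 9 were tested, 0 fell and 0 rose. The median log2 fold change was 0.41, with 7 above 0 and 2 below. Ccr2 and Cx3cr1, at 2.26 and 1.62, did not pass. The list summed to 476.5 to 598.6 CPM in KO and 659.2 to 813.0 CPM in WT, mostly from Lyz2. Lyz2 had a log2 fold change of -0.49 and passed as lower under 1 of 19 alternatives. Of 10 stromal markers, 4 were tested, 0 fell and 0 rose, Col3a1 was at 0 in all libraries, and the sum was 28.4 to 42.1 CPM in KO and 36.2 to 52.4 CPM in WT. Of 9 erythroid markers, 0 fell and 0 rose, with sums of 269.5 to 1644 CPM in KO and 194.7 to 1105 CPM in WT, in which Car1 reached 1462 CPM in KO and 808 CPM in WT. The median log2 fold change of the erythroid list was 0.35, with 6 above 0 and 3 below. Hbb-bt, a beta-globin gene, was higher in KO without passing (log2 fold change 1.51, edgeR adjusted p = 0.275). Within that list the alpha-globin genes were apart between groups. Hba-a1 had 10.7, 0.222, 0.695 and 0 CPM in KO replicates 1 to 4, against 46.4 to 128 CPM in WT (log2 fold change -5.06, adjusted p = 0.0622), and passed under 8 of 19 alternatives. Hba-a2 had 0 to 10.6 CPM in KO, against 23.9 to 62.4 CPM in WT (log2 fold change -4.14, adjusted p = 0.159), and passed under 2. These 2 genes are near-identical copies, and their separate levels are uncertain. Of 7 neutrophil markers, 6 were tested and S100a9 fell, to 0.585 to 0.987 CPM in KO, against 1.97 to 5.30 CPM in WT (adjusted p = 0.0404, and 0.0624 to 0.163 without any 1 library other than WT replicate 1), and the sum was 24.9 to 75.9 CPM in KO and 19.0 to 25.1 CPM in WT. Most of the KO sum was Mpo, an early granulocyte gene, at 21.8 to 74.8 CPM in KO, against 3.56 to 13.6 CPM in WT (log2 fold change 2.48, adjusted p = 0.0509), which passed as higher under 10 of 19 alternatives. S100a8, Ngp and Camp had log2 fold changes of -2.55, -3.72 and -2.83, with adjusted p of 0.0666, 0.0922 and 0.171. The part of these cells in the cargo result was not tested.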

How the data were processed

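The authors deposited 1 Salmon table per library, with estimated counts, TPM and effective lengths per transcript. Per the submitters' processing notes, cutadapt and Salmon 0.11.2 were used with mm10; the transcript set behind it was not given in the sources used here. Per the labels' protocols, libraries were made with the SMART-Seq v4 kit, and that kit does not mark strand. Of 112092 transcripts, 111787 were matched to GENCODE M21 and summed to 34932 genes; the unmatched transcripts held 0.0836% to 0.123% of the estimated counts. The estimated counts deposited by the authors were rounded and tested with edgeR 4.0.16 (TMM, filterByExpr, quasi-likelihood, Benjamini-Hochberg adjustment, threshold 0.05) in R 4.3.3, on 14695 genes. Ratios used the TPM deposited by the authors, summed per gene, with a pseudocount of 0.01 and an exact permutation test in scipy 1.17.1. Alternatives included DESeq2 1.42.0, limma 3.58.1 voom, a length offset from the deposited effective lengths, other filters and scalings, and leaving out each library. The count of protein-coding transcripts alone was chosen after seeing the data. Scripts were tested on simulated data, where edgeR called 35 of 100 genes changed 2-fold and 79 of 98 changed 4-fold. Of 14145 unchanged genes it called 10. A list in which no gene passed is thus not shown to be unchanged. Groups and replicate numbers are those of the sample titles. The cargo genes, comparison lists and pairs were chosen with earlier results of these data known. All cargo genes were named, with up to 3 tested genes of smallest p from each other list, the nearest profile of each cargo gene and the neighbours of Ppbp, Pf4, F5 and Selp; other genes named were chosen after their values were seen. Some items that these rules name are not reported here.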

Additional observations from a re-analysis of the deposited data

Results flagged for a closer look

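Among 66 quantities examined within the 4 KO libraries, 10 had 1 library far from the other 3 by Dixon's criterion at 95%, where chance gives about 1 in 20 groups. None of the 10 cargo genes was among them. The quantities are not independent, as the erythroid sum contains Hba-a1 and Hba-a2, and some lie near 0. The count of 10 can therefore not be set against 1 in 20. In KO replicate 1, Vipas39, the partner of Vps33b, stood at 36.57 CPM, against 57.88 to 59.00 CPM in the other KO libraries. In the same library Hba-a1 and Hba-a2, the alpha-globin genes, stood at 10.69 and 10.58 CPM and were under 0.70 CPM in the other KO libraries, against 46.4 to 128 CPM and 23.9 to 62.4 CPM in WT, so that all KO libraries lay below all WT libraries, and the erythroid markers summed to 1644 CPM, against 269.5 to 497.4 CPM. Also in KO replicate 1, Cx3cr1 stood at 1.288 CPM, P2ry12 at 2.264 CPM, B4galt1 at 19.32 CPM and the 5 genes of the CXC chemokine list at 3.552 CPM in sum, each above the other KO libraries. In KO replicate 3, Cldn5 stood at 0.6948 CPM and was at 0 in the others, and the stromal markers summed to 42.09 CPM, against 28.39 to 30.56 CPM. Without KO replicate 1 or 3, the same count of 9 cargo genes fell.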

How the results depend on the processing

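The count of 9 cargo genes lower in KO and 0 higher was the same under every alternative but 1: with protein-coding transcripts only, 8 fell, Vwf being lost. Leaving out 1 library each time gave 9. Log2 fold changes ran from -7.45 to -6.83 for Ppbp and from -2.61 to -1.85 for Pf4, whose adjusted p reached 0.0377. Over all genes, 244 lower and 88 higher calls became 567 and 378 with DESeq2, 439 and 269 with voom, 396 and 218 with the Y-linked pattern as a covariate, and 251 and 215 with the length offset; higher calls were thus 26.5% of all calls, and 40%, 38%, 35.5% and 46.1% under these. Without 1 library, lower calls ranged from 157 to 279 and higher calls from 30 to 130. In the lists beyond the cargo, 19 lower calls became 31 with voom and 13 to 22 without 1 library. The 1 higher call became 4 with DESeq2, 3 with the covariate, 0 to 2 without 1 library, and 2 with upper quartile scaling, no filter, a stricter filter, voom, the length offset, the replicate block, protein-coding genes only or libraries with Y-linked expression. Same-numbered libraries did not deviate together (correlations -0.053, -0.120 and -0.039), but without a comparison to mismatched libraries this cannot show whether the numbers mark pairs. With the replicate as a block, 182 genes were lower and 58 higher, and the Ppbp to Pf4 difference was -5.06. The cause of these shifts was not tested. At 7.54 to 17.6 reads, F13a1 in KO is limited by counting error.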
